A study of Mus musculus with 10 samples.

Results

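Of the 47729 genes in the count table, 10 that serve antigen presentation are described here. They were chosen by name and matched to Ensembl gene IDs, and they fall into 6 genes of the class I route (H2-D1, H2-K1, B2m, Tap1, Psmb8 and Psmb9) and 4 of the class II route (H2-Ab1, H2-Aa, H2-Eb1 and Cd74). All 10 had counts in all 10 libraries. RNA was taken on postnatal day 56 from the brains of mice of the outbred CF1 stock. In the low-protein (LP) groups the parents were given a low-protein diet from mating, and the dams stayed on it through pregnancy and lactation; in the normal-protein (NP) groups a normal-protein diet took its place. Every litter was weaned at postnatal day 21 and then kept on the NP diet for 5 weeks, so LP refers only to the period before weaning.

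Prefrontal cortex (PFC) and hippocampus (HIP) were profiled in both sexes and hypothalamus (HYP) in males only, and each region and sex had 1 NP and 1 LP library, which makes 5 pairs. Whether a library is 1 animal or a pool is not given in the labels, nor are litters or haplotypes of the major histocompatibility complex (MHC), so diet and family cannot be told apart. P-values measure only the spread between these libraries, which may be technical. Total counts ran from 7871010 to 16265481. The female NP hippocampus column stops on chromosome 4, and 19598 genes were treated as not measured there. They lie on or after the break, apart from 419 without a matched position, and none is among the 10 described. Levels are given in CPM (counts relative to library size), taken over the 28131 genes measured in all libraries and after TMM scaling; 3 counts correspond to 0.283 to 0.441 CPM before that scaling. The summed level of the marker genes chosen for each region was highest in the region named on the label, though 1 of 6 neocortex markers was higher in hypothalamus than in prefrontal cortex. The summed level of the hypothalamus markers was 1278 CPM (NP) and 774 CPM (LP) in the hypothalamus and at most 5.95 CPM elsewhere. The LP hypothalamus library also carries a code in its title that differs from the others in its second number, and the meaning of that number is not given.

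Class I molecules are carried by nearly all nucleated cells and display peptides from proteins made inside the cell. The peptides are cut by the proteasome, in which Psmb8 and Psmb9 supply interferon-inducible catalytic subunits. They are moved into the endoplasmic reticulum by a transporter that contains Tap1, and are bound by a heavy chain such as H2-D1 or H2-K1 paired with the light chain B2m. Class II molecules are made mainly by professional antigen-presenting cells, in the brain chiefly macrophages of the meninges, vessels and choroid plexus, dendritic cells and activated microglia. They pair an alpha chain (H2-Aa) with a beta chain (H2-Ab1), and H2-Eb1 is the beta chain of a further class II molecule. Cd74, the invariant chain, guides class II molecules through the cell until a peptide is bound. The class I loci are among the most polymorphic of the mouse, and the reads were aligned to the mm10 reference, which represents another strain.

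The promoters of H2-D1, H2-K1, B2m and H2-Aa are shown because H2-D1 passed the diet test and H2-K1 did not, with closely related upstream sequence, and B2m and H2-Aa give a light chain and a class II promoter for comparison. Each is 300 bases long, from 250 before to 50 after the RefSeq start on GRCm38.p6, and was taken from the strand of the gene. Capitals mark matches on either strand to GGGATTCCC (the core of the class I enhancer A), GAANNGAAA (an interferon regulatory factor motif), and TGACG (the core of a cyclic AMP response element). They also mark the inverted CCAAT box, which was searched on both strands with the letters ATTGG. The last motif marked is the TATA box, for which the search used the letters TATAAA. In H2-Aa the cyclic AMP element core matches on both strands, and these 2 matches overlap.
H2-D1, chr17:35262844-35263143, plus strand: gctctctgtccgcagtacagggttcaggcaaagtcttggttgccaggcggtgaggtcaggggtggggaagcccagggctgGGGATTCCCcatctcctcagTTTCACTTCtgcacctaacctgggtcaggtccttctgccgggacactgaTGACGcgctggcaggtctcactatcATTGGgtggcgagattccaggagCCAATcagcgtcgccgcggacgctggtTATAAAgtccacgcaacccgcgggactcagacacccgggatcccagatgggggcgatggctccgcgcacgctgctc
H2-K1, chr17:34000298-34000597, minus strand: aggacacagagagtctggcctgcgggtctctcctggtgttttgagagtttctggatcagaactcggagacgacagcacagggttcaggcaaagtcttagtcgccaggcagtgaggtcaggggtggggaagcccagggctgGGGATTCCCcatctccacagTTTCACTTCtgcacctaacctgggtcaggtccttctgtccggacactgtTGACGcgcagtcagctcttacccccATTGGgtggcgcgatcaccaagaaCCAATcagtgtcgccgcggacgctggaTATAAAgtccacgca
B2m, chr2:122147437-122147736, plus strand: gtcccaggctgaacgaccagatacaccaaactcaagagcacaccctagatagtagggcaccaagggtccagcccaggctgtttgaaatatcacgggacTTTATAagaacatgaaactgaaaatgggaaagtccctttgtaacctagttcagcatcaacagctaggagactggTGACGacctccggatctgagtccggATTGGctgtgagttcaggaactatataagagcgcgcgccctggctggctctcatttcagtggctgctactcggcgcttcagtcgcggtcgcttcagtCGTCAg
H2-Aa, chr17:34287774-34288073, minus strand: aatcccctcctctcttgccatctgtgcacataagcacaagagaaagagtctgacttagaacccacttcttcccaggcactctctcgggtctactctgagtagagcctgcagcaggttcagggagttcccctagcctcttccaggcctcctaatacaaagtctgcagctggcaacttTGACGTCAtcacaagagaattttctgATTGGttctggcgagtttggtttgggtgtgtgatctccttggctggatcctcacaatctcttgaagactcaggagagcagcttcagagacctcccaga

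H2-D1 and H2-K1 both held all 5 motifs, in the same order. In H2-D1 the enhancer A core began 170 bases and the interferon regulatory factor motif 150 bases before the start, and in H2-K1 they began 110 and 90 bases before it. The TATA box lay 26 bases before the annotated start in H2-D1 and after it in H2-K1, so distances from the start depend on where RefSeq places it. Over 239 aligned bases the promoters of H2-D1 and H2-K1 were 88.3% identical, and their transcripts were 91.1% identical over 1578 aligned bases. Of 32851 RefSeq promoter windows of the same length, 0.4% held the enhancer A core, 7.5% the interferon regulatory factor motif, 20.8% the cyclic AMP element core, 37.4% the inverted CCAAT box and 13.6% the TATA box. By these exact letters B2m matched the last 3 of these motifs, and H2-Aa matched the cyclic AMP element core and the inverted CCAAT box. The TATAAA match of B2m lay on the opposite strand and began 152 bases before the start. Variant forms of the motifs were not searched for, so a motif without a match here is not shown to be absent. The promoter table had entries for H2-D1, H2-K1, B2m, Tap1, Psmb8, Psmb9, H2-Aa and H2-Eb1. The Tap1 and Psmb9 genes face away from each other, and their windows overlap by 275 bases. These matches describe the letters of the reference and were not tested as sites in CF1 mice.

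H2-D1 (ENSMUSG00000073411), a class I heavy chain on chromosome 17 from 35262730 to 35267499, was higher in the LP than in the NP library of every pair. In male prefrontal cortex its level was 27.8 CPM (NP) and 54.9 CPM (LP), and in female prefrontal cortex 37.7 CPM and 55.7 CPM. In male hippocampus it was 23.3 CPM and 51.0 CPM, and in female hippocampus 35.0 CPM and 57.2 CPM. In male hypothalamus it was 41.6 CPM and 156.8 CPM. The highest NP library thus lay below the lowest LP library. The share of all genes whose NP and LP libraries separate in this way was not computed, so the separation is a description only. The log2 ratio of LP to NP was 0.98 in male and 0.56 in female prefrontal cortex, 1.13 in male and 0.71 in female hippocampus, and 1.91 in hypothalamus. All 5 exact 95% intervals, which cover counting error only, lay above 0. The interval of the hypothalamus pair, 1.77 to 2.06, lay above the upper bound of every other pair, of which 1.39 was the highest; whether the response to diet differs between the hypothalamus and the other regions was not tested, with 1 pair there.

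Across the 5 pairs the fitted LP minus NP difference of H2-D1 was 1.15 ± 0.16 on the log2 scale (SE, 2.22-fold; edgeR quasi-likelihood test, adjusted p = 0.00315 over all genes tested). It passed in all 10 alternative fits, with adjusted p from 0.000347 to 0.021. Without the hypothalamus pair the difference was smaller, at 0.84 ± 0.09, and without any other single pair it was 1.14 to 1.26. Within prefrontal cortex the difference was 0.77 ± 0.12 (edgeR adjusted p = 0.0032), and within hippocampus 0.91 ± 0.12 (edgeR adjusted p = 0.0011). Both were adjusted over 11772 genes, since only genes measured in all libraries were tested within regions. These within-region calls did not hold without a low-count filter (edgeR adjusted p = 0.111 and 0.089). The prefrontal call did not hold with DESeq2 either (adjusted p = 0.185). The difference between the regions was 0.13 ± 0.17 (edgeR adjusted p = 0.989). The diet difference was smaller in females than in males in both regions, with a fitted female minus male value of -0.41 ± 0.14 that did not pass in edgeR (unadjusted p = 0.00893, adjusted p = 0.541). The female libraries lay above the male ones on NP in both regions, and the sex difference over both diets was 0.26 ± 0.09 (edgeR adjusted p = 0.323).

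H2-K1 (ENSMUSG00000061232), the other classical heavy chain, lies on chromosome 17 from 33996017 to 34000347 and did not pass the diet test. Its level was 24.5 CPM (NP) and 24.6 CPM (LP) in male prefrontal cortex, 21.9 CPM and 19.7 CPM in female prefrontal cortex, 16.3 CPM and 19.8 CPM in male hippocampus and 20.5 CPM and 20.4 CPM in female hippocampus. In hypothalamus it was 45.6 CPM (NP) and 77.3 CPM (LP), a log2 ratio of 0.76 with an interval of 0.61 to 0.92. The hypothalamus pair was the only one of the 5 whose interval for H2-K1 excluded 0. The fitted difference over all pairs was 0.30 ± 0.12 (edgeR adjusted p = 0.297).

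**Figure D1:**
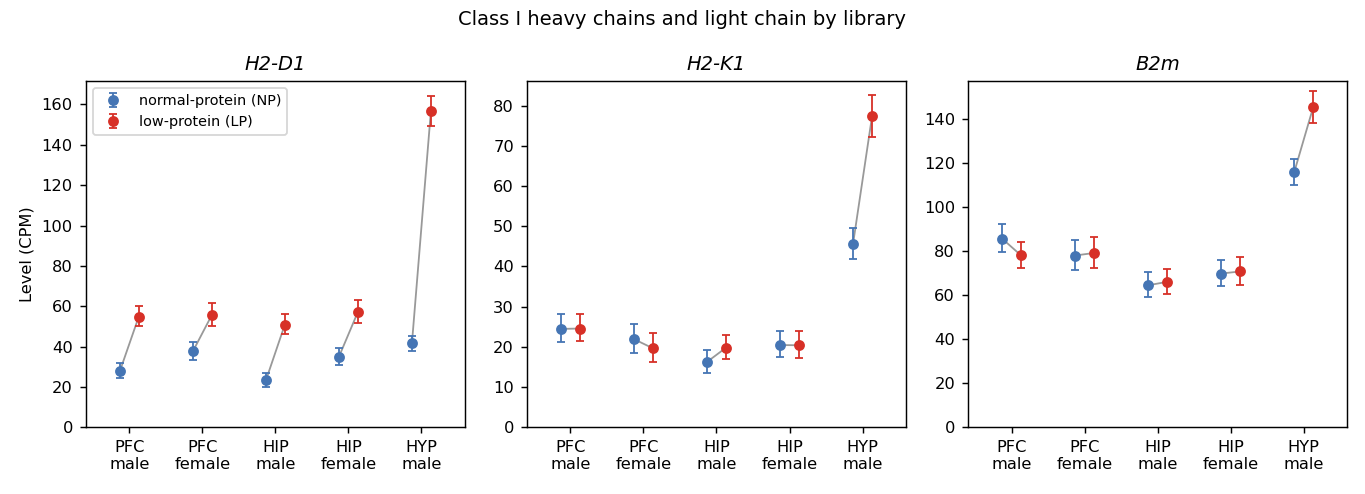
Level in CPM (vertical axis, from 0) of H2-D1, H2-K1 and B2m in each library, by region and sex (horizontal axis), with NP in blue and LP in red; bars are exact 95% Poisson intervals of the count. H2-D1 rises from NP to LP in all 5 pairs, from 41.6 to 157 CPM in hypothalamus, whereas H2-K1 and B2m separate clearly only there.

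A ratio of counts within a library does not depend on the scaling between libraries. The count of H2-D1 divided by that of H2-K1 was 1.14 in NP and 2.23 in LP male prefrontal cortex, 1.72 and 2.83 in female prefrontal cortex, and 1.43 and 2.57 in male hippocampus. It was 1.71 and 2.8 in female hippocampus and 0.912 and 2.03 in hypothalamus. The ratio was higher on LP in all 5 pairs, and no NP library reached the lowest LP library. How often ratios of other genes separate the diets in this way was not computed. H2-D1 over B2m behaved alike, between 0.325 and 0.501 on NP and between 0.704 and 1.08 on LP. H2-K1 over B2m lay between 0.249 and 0.533 in the 10 libraries, with both ends of that range in LP libraries.

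**Figure D2:**
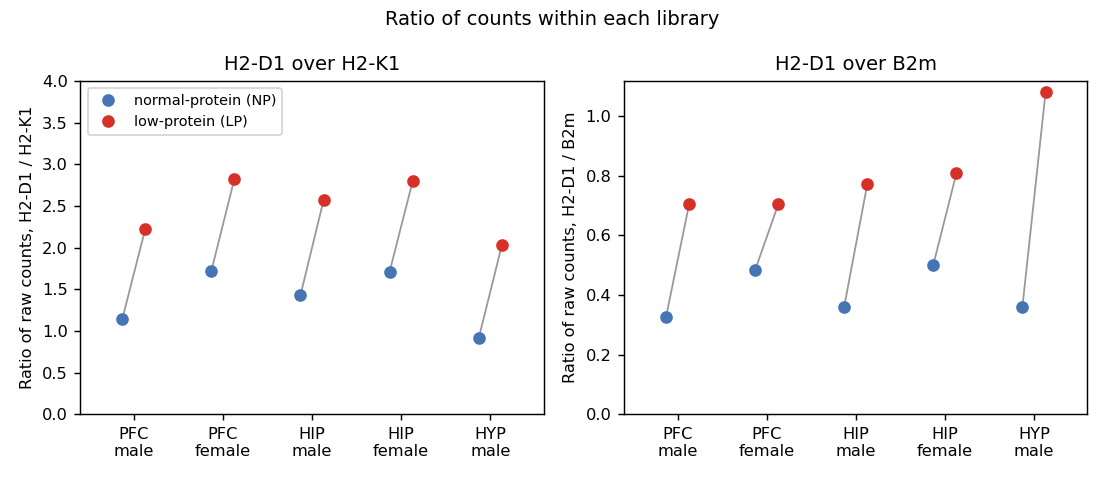
Ratio of raw counts within each library (vertical axis, from 0) of H2-D1 to H2-K1 (left) and of H2-D1 to B2m (right), by region and sex, NP in blue and LP in red. In all 5 pairs both ratios are higher in LP.

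B2m (ENSMUSG00000060802, chromosome 2, 122147686 to 122153083), the light chain shared by class I molecules, was near the same level on both diets outside the hypothalamus. It ran from 64.5 to 70.7 CPM in the 4 hippocampus libraries and from 78.0 to 85.6 CPM in the 4 prefrontal libraries. In hypothalamus it was 115.6 CPM (NP) and 145.1 CPM (LP), a log2 ratio of 0.33 with an interval of 0.22 to 0.43. Over all pairs the fitted difference was 0.07 ± 0.06 (edgeR adjusted p = 0.682). The 95% interval of its log2 ratio reached at most 0.21 in the 4 other pairs.

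The peptide supply genes were low and did not pass the diet test. Tap1, a subunit of the peptide transporter, had log2 ratios from -1.06 in female prefrontal cortex, where counts were 36 (NP) and 16 (LP), to 0.35 in hypothalamus, and a fitted difference of -0.09 ± 0.18 (edgeR adjusted p = 0.869). The interval excluded 0 only in the female prefrontal pair, from -2.01 to -0.17. Psmb8, an immunoproteasome subunit, had counts of 8 to 42 and a fitted difference of -0.08 ± 0.22 (edgeR adjusted p = 0.909). Psmb9, also an immunoproteasome subunit, lies on the other side of Tap1 from Psmb8 on chromosome 17. It had counts of 10 to 51 and a difference of -0.16 ± 0.19 (edgeR adjusted p = 0.781). None of the 10 pair intervals of Psmb8 and Psmb9 excluded 0, and these counts leave room for changes in either direction.

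The class II genes were sparse outside the hypothalamus. H2-Ab1, the beta chain, had 12 and 18 counts (NP and LP) in male prefrontal cortex, 11 and 8 in female prefrontal cortex, 1 and 7 in male hippocampus, 2 and 2 in female hippocampus, and 120 and 236 in hypothalamus. In CPM the hypothalamus libraries were at 9.79 (NP) and 21.3 (LP), and the other 8 at 0.125 to 2.08. The fitted diet difference of H2-Ab1 was 0.98 ± 0.19 (1.98-fold; edgeR adjusted p = 0.0266), and it was higher on LP in 4 of 5 pairs. The hypothalamus pair, with a log2 ratio of 1.12 and an interval of 0.80 to 1.45, was the only one whose interval excluded 0. Without that pair the difference was 0.40 (edgeR adjusted p = 0.686), and it did not pass with DESeq2 or without either hippocampus pair. In male hippocampus the ratio of 7 counts to 1 had an interval of -0.22 to 8.23 on the log2 scale.

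H2-Aa, the alpha chain, had 26 and 18 counts (NP and LP) in male prefrontal cortex, 7 and 11 in female prefrontal cortex, 4 and 5 in male hippocampus, 4 and 6 in female hippocampus, and 200 and 360 in hypothalamus. Its log2 ratio in hypothalamus was 1.00, with an interval of 0.74 to 1.25, and its fitted difference over all pairs was 0.79 ± 0.19 (edgeR adjusted p = 0.069). Cd74, the invariant chain and the most abundant class II gene per length in every library, had 57 and 63 counts in male prefrontal cortex, 34 and 29 in female prefrontal cortex, 12 and 13 in male hippocampus, 14 and 11 in female hippocampus, and 448 and 737 in hypothalamus. Its ratio there was 0.87, with an interval of 0.69 to 1.04, and its fitted difference was 0.59 ± 0.15 (edgeR adjusted p = 0.0901). Without the hypothalamus pair H2-Aa was at -0.06 and Cd74 at -0.04. Without the male prefrontal pair both passed, at 0.96 and 0.71 (edgeR adjusted p = 0.00658 and 0.035).

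H2-Eb1, the beta chain of the further class II molecule, stood apart from the other class II genes in the hypothalamus. It had 168 counts on NP and 161 on LP there, a log2 ratio of 0.09 with an interval of -0.23 to 0.41 that lay below the intervals of H2-Ab1, H2-Aa and Cd74. Elsewhere its counts were 14 and 5 (NP and LP) in male prefrontal cortex, 6 and 12 in female prefrontal cortex, 2 and 10 in male hippocampus and 2 and 7 in female hippocampus. The interval lay below 0 in male prefrontal cortex (-3.42 to -0.04) and above 0 in male hippocampus (0.02 to 5.48). Over all pairs the difference was 0.16 ± 0.24 (edgeR adjusted p = 0.819).

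**Figure D3:**
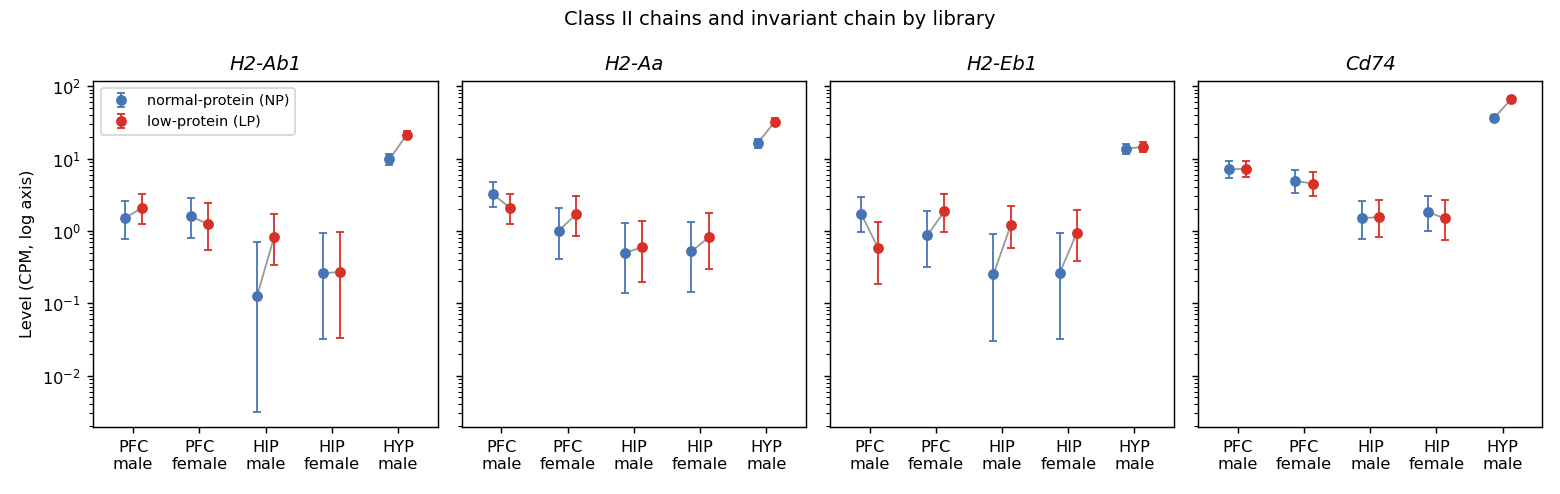
Level in CPM (vertical log axis) of the 4 class II genes in each library, by region and sex, NP in blue and LP in red, with exact 95% Poisson intervals of the count. The hypothalamus libraries stand far above the rest for all 4 genes, and there H2-Ab1, H2-Aa and Cd74 are higher on LP while H2-Eb1 counts are 168 and 161.

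Counted together, 2 of the 10 genes (H2-D1 and H2-Ab1) were higher on LP over all pairs, none was lower and 8 did not pass, where 1.46% of the 17685 genes tested passed in either direction. The median fitted log2 difference was 0.23 over the 10 genes and 0.001 over all genes tested. In prefrontal cortex 1 of 10 passed, H2-D1, against 1.71% of the 11772 genes tested there. In hippocampus again 1 of 10 passed, H2-D1, against 0.323% of 11772. None passed for a diet difference between hippocampus and prefrontal cortex, where 0% of the 11772 genes tested passed in edgeR. At an unadjusted edgeR p under 0.05 there were 637 genes and 1 of the 10, H2-Eb1 at 0.0456. Nor did any pass for a diet difference between females and males (0.191% of 10973 genes tested in edgeR). There 1 of the 10 had an unadjusted edgeR p under 0.05, H2-D1. The genes tested within regions and for these 2 differences were only those measured in all libraries. For sex itself none of the 10 passed in edgeR or DESeq2, against 0.634% of all genes, and 1 had an unadjusted p under 0.05. The comparisons within prefrontal cortex and hippocampus use libraries that also enter the fit over all pairs.

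In the hypothalamus pair alone, 5 of the 10 genes (H2-D1, H2-K1, H2-Ab1, H2-Aa and Cd74) were at least 1.5-fold higher on LP, where 6.8% of 17608 genes were. Their median log2 ratio over all 10 was 0.56, against -0.002 for all genes. With 1 library a diet, this compares 2 libraries and not the diets. The summed level of the 7 of 8 hypothalamus markers measured in all libraries was 1278 CPM (NP) and 774 CPM (LP) in the same pair. The neuropeptide genes Avp (440.8 and 233.0 CPM), Oxt (292.9 and 131.9 CPM), Pmch (178.9 and 104.5 CPM) and Hcrt (124.3 and 26.2 CPM) were lower on LP. Pomc (167.0 and 189.2 CPM), Nkx2-1 (59.0 and 73.8 CPM), Agrp (30.3 and 32.6 CPM) and Sim1 (14.8 and 14.9 CPM) were not. Over all pairs Avp, Oxt, Pmch and Hcrt passed as lower on LP and none of the 8 as higher. Of all genes tested, 1.46% passed in either direction. Outside the hypothalamus Avp, Oxt, Pmch and Hcrt had 0 to 6 counts a library, so these calls rest on the hypothalamus pair. The part of dissection in the result was not tested.

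**Figure D4:**
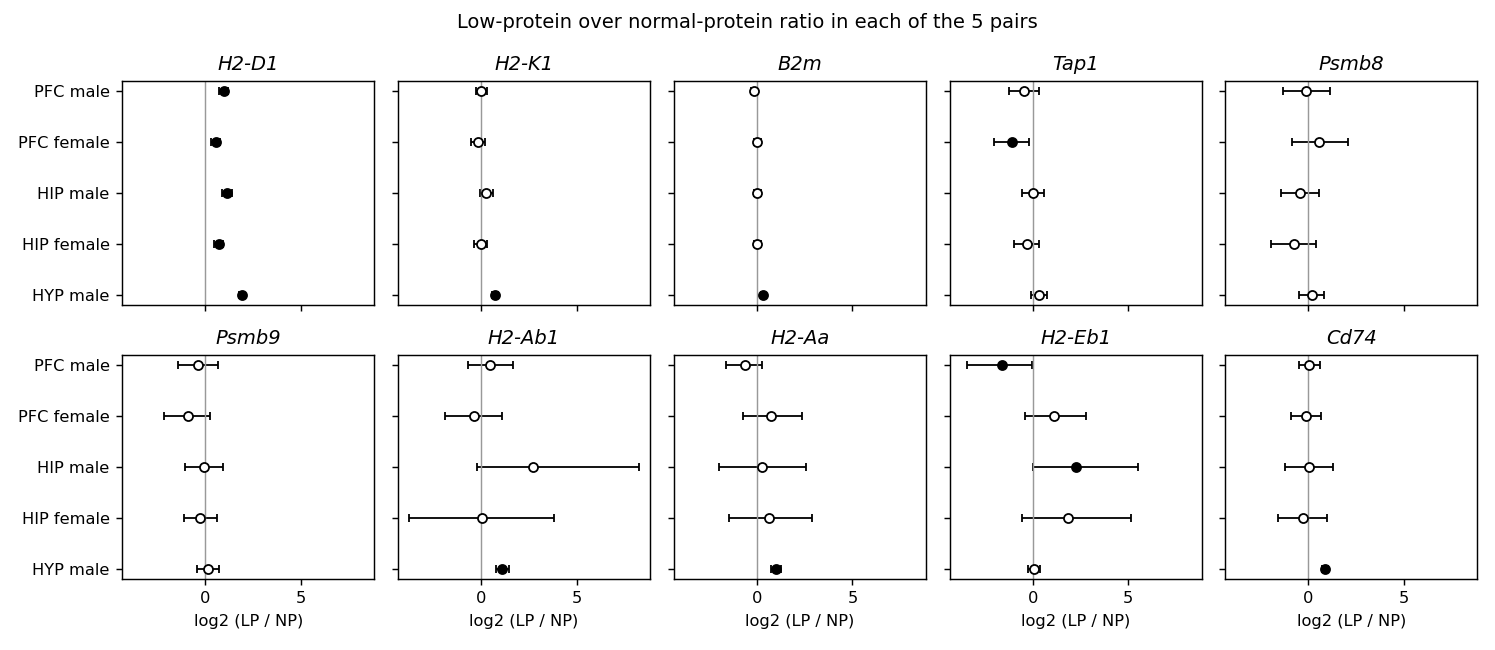
Log2 ratio of LP to NP (horizontal axis) for each gene in each of the 5 pairs (vertical axis), with exact 95% intervals for counting error; filled points have intervals that exclude 0. H2-D1 is filled in all 5 pairs, and H2-K1, B2m, H2-Ab1, H2-Aa and Cd74 are filled in the hypothalamus pair only.

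Between regions the hypothalamus stood out. All 10 genes were higher there than in prefrontal cortex, where 33.7% of the 17447 genes tested were higher, and all 10 passed with each library left out in turn. Against hippocampus 8 of 10 were higher, where 31.6% of all genes were; Tap1 (0.53 ± 0.22, edgeR adjusted p = 0.0504) and Psmb8 (0.60 ± 0.27, edgeR adjusted p = 0.0683) did not pass. The class II genes differed most. The fitted log2 difference from prefrontal cortex was 2.89 ± 0.19 for Cd74, 3.07 ± 0.24 for H2-Ab1, 3.30 ± 0.25 for H2-Aa and 3.53 ± 0.32 for H2-Eb1, and that from hippocampus was 4.80 ± 0.23, 5.11 ± 0.32, 5.03 ± 0.32 and 4.40 ± 0.36 in the same order. The largest adjusted p of these 8 differences in edgeR was 3.22e-07. For the class I genes the difference from prefrontal cortex ranged from 0.71 ± 0.09 for B2m to 1.39 ± 0.16 for H2-K1. For H2-D1 it was 1.19 ± 0.20 with both hypothalamus libraries and 0.54 without the LP one (edgeR adjusted p = 0.0043), and from hippocampus 1.29 ± 0.20 and 0.63. Psmb9 was higher than in hippocampus by 0.81 ± 0.25 (edgeR adjusted p = 0.0116), a call that did not hold with DESeq2 (adjusted p = 0.124) or without the male NP hippocampus or the LP hypothalamus library.

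Hippocampus and prefrontal cortex differed in 5 of the 10 genes, where 54% of all genes differed. Cd74 was lower in hippocampus, with a log2 difference of -1.91 ± 0.30 (edgeR adjusted p = 0.000103), as were H2-Ab1 at -2.04 ± 0.46 and H2-Aa at -1.73 ± 0.47. B2m was lower at -0.25 ± 0.07 (edgeR adjusted p = 0.0122), and Tap1 was higher by 0.65 ± 0.22 (edgeR adjusted p = 0.0214). B2m, Tap1 and H2-Aa lost this call without the male LP hippocampus library, which left 2 genes of 10. B2m also lost it without the male NP prefrontal library, and Tap1 without either LP prefrontal library. The mean level of Cd74 was 5.95 ± 1.43 CPM in prefrontal cortex and 1.59 ± 0.16 CPM in hippocampus (SD, n = 4 each), and the ranges did not overlap. In bulk tissue, fewer cells of a type and less RNA per cell cannot be told apart.

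**Figure D5:**
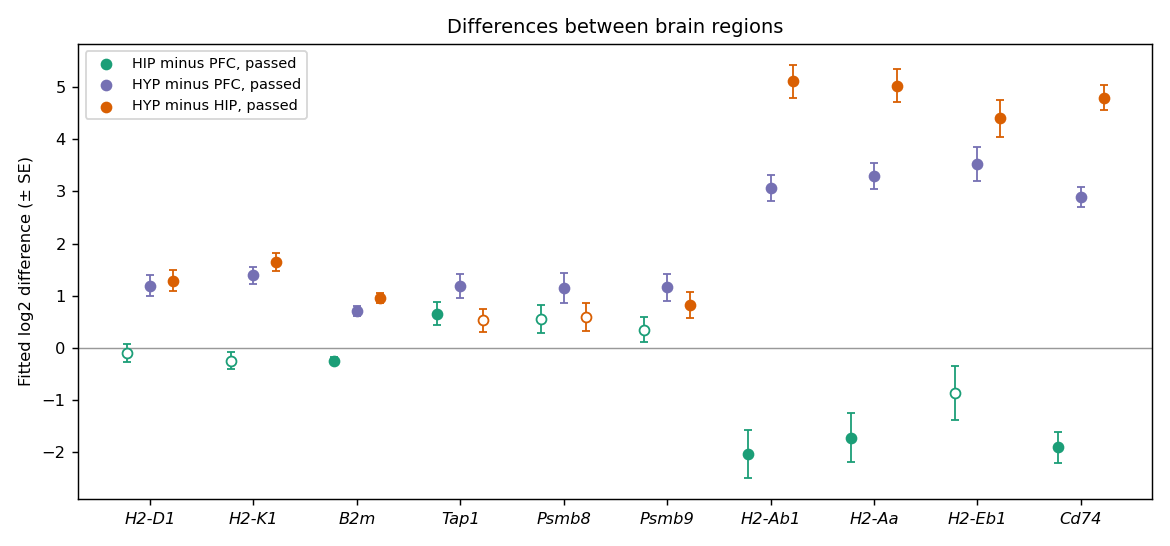
Fitted log2 difference between regions (vertical axis, ± SE) for each of the 10 genes (horizontal axis), in green for hippocampus minus prefrontal cortex, purple for hypothalamus minus prefrontal cortex and orange for hypothalamus minus hippocampus; filled points passed the test. The 4 class II genes lie between 2.89 and 5.11 above the other regions in hypothalamus, the class I genes between 0.53 and 1.64.

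Per length, in RPKM, which is CPM divided by the summed exon length in kilobases, the order of the genes changed between regions. In prefrontal cortex B2m was at 93.2 ± 4.28 RPKM, H2-D1 at 17.1 ± 5.29, H2-K1 at 7.71 ± 0.80 and Cd74 at 3.54 ± 0.85 (SD, n = 4), with the other 6 genes below 1 RPKM on average. In hypothalamus Cd74 was at 21.8 (NP) and 39.7 RPKM (LP), above H2-D1 on NP (16.1 RPKM) and below it on LP (60.8 RPKM). H2-Ab1, H2-Aa and H2-Eb1 were at 3.81, 4.30 and 7.05 RPKM in the NP hypothalamus, where Tap1, Psmb8 and Psmb9 were at 1.39, 0.99 and 1.14. The order of genes within a library depends on the length used. Summed exons of H2-Aa cover 3798 bases and its longest coding transcript 1128, against 1944 and 1669 for H2-Eb1. In hippocampus the class II chains averaged 0.145 to 0.341 RPKM, and their ranges overlapped each other.

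Most other genes of the class I route did not pass for diet. Of 11 further genes of peptide cutting, transport and loading, 1 was higher on LP and none was lower, where 1.46% of all genes passed in either direction: Calr, a chaperone of the endoplasmic reticulum, at 0.19 ± 0.04 (edgeR adjusted p = 0.0426), with a median log2 difference of 0.09 over the 11. Of 18 class Ib and other class I genes tested, none passed. H2-Q2 was at 1.31 ± 0.32 (edgeR adjusted p = 0.0711), with 42 counts on NP and 157 on LP in hypothalamus and 3 to 15 elsewhere, and H2-T10 at 0.71 ± 0.19 (edgeR adjusted p = 0.101). The 3 constitutive proteasome subunits, which the inducible ones replace, did not pass, with a median of 0.03.

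H2-D1 shares sequence with other class I genes, which bears on how its reads were assigned. Of 2053 stretches of 50 bases along its transcript, 14.3% occurred unchanged in another annotated gene, most of them in H2-Q1, as did 8.8% of those of H2-K1; for B2m, Psmb8, Psmb9 and the 4 class II genes the share was 0%. Where reads that fit several genes were counted is not given in the sources used here, and libraries may carry other class I alleles than the reference; the part of either in the H2-D1 result was not tested. When the counts of the class I heavy chain genes were summed, 18 genes in all, the LP to NP log2 ratio was 0.26 and 0.22 in male and female prefrontal cortex, 0.50 and 0.28 in hippocampus and 1.07 in hypothalamus. Without H2-D1 the sum gave -0.07, 0.04, 0.17, 0.01 and 0.66 in the same order.

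Around these genes, the stretch of chromosome 17 from H2-K1 to H2-D1 holds 134 annotated genes, of which 69 were tested for diet, 4 were higher on LP and none was lower, where 1.46% of all genes tested passed in either direction. Besides H2-D1 and H2-Ab1 these were the heat shock genes Hspa1b (2.08 ± 0.30, edgeR adjusted p = 0.00458) and Hspa1a (1.79 ± 0.26, edgeR adjusted p = 0.00487), which encode near-identical chaperones and whose counts may be split between them. Hspa1b went from 220 to 2137 counts in hypothalamus, from 149 to 1014 in male and 107 to 202 in female prefrontal cortex, and from 277 to 1119 in male and 282 to 399 in female hippocampus. The 54 tested genes of the stretch outside the gene lists had a median log2 difference of 0.008. Because H2-K1 and H2-D1 set its ends, the count of 4 partly repeats the calls given above and is a description only.

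Genes of interferon signalling and response, which drive many antigen presentation genes, did not pass for diet. None of 16 signalling genes passed, and the smallest p-values were those of Irf9 (0.30 ± 0.08, edgeR adjusted p = 0.11) and Socs3 (0.38 ± 0.14, edgeR adjusted p = 0.226). None of 30 interferon-induced genes passed, and 23 of the 30 had a positive difference, with a median of 0.18 against 0.001 over all genes tested. The share of all genes with a positive difference was not computed. Ifit1 was at 0.82 ± 0.28 (edgeR adjusted p = 0.211) and Bst2 at 0.62 ± 0.25 (edgeR adjusted p = 0.276). Their summed level, over the 20 of them measured in all libraries, went from 182.8 to 256.2 CPM in the hypothalamus pair and was -0.24 to 0.001 on the log2 scale in the other pairs. In the hypothalamus 21 of 29 interferon-induced genes were higher than in prefrontal cortex, where 33.7% of all genes were, with a median log2 difference of 1.09 over the 29. The 3 with the smallest p-values were Ifi27 (1.10 ± 0.10), Ifitm3 (1.29 ± 0.17) and Cxcl10, which had 17 and 25 counts in hypothalamus and 0 to 5 elsewhere.

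Of 12 further genes of the class II pathway tested, 5 were higher and 2 lower in hypothalamus than in prefrontal cortex, where 33.7% of all genes were higher and 30.2% lower; the share that was higher is near that of all genes. H2-Ea-ps, annotated as a pseudogene of the alpha chain that pairs with H2-Eb1, had 70 and 97 counts in hypothalamus and 0 to 8 elsewhere, and Ifi30, a lysosomal thiol reductase of antigen processing, was higher by 0.76 ± 0.15. H2-DMa, which helps load class II molecules, was lower there, at -0.93 ± 0.11 (edgeR adjusted p = 6.14e-06). Ciita, the master activator of class II transcription, had 8 to 17 counts in every library and was at 0.53 ± 0.24 for diet (edgeR adjusted p = 0.345). None of the 12 passed for diet.

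Markers of cells that can carry class II differed in direction between hypothalamus and prefrontal cortex. Of 18 microglia markers 17 were lower in hypothalamus than in prefrontal cortex and none was higher, with a median of -1.03, where 30.2% of all genes were lower. Their sum, over the 10 measured in all libraries, was 336.5 and 388.1 CPM in hypothalamus, 604 to 671 CPM in prefrontal cortex and 446 to 462.5 CPM in hippocampus. Of 7 markers of border macrophages tested, 4 were higher in hypothalamus than in prefrontal cortex and 7 were higher than in hippocampus (33.7% and 31.6% of all genes), among them Cbr2 (1.48 ± 0.29 and 2.00 ± 0.31). In hippocampus 4 of the 7 were lower than in prefrontal cortex and none was higher, with a median of -0.94, where 54% of all genes differed. Of 3 B-cell markers tested, 1 was higher in hypothalamus than in prefrontal cortex, the receptor subunit Cd79a (29 and 36 counts in hypothalamus and 1 to 7 elsewhere), and 2 were lower, Blnk at -3.47 ± 0.22 and Ighm at -0.58 ± 0.18. Of 3 monocyte and neutrophil markers tested, 1 was higher, the chemokine receptor Ccr2 (33 and 36 counts in hypothalamus and 1 to 7 elsewhere), and 1 was lower, Ly6c2 at -0.80 ± 0.24. Of 3 dendritic cell markers tested, none was higher and 1 was lower, Zbtb46 at -1.35 ± 0.12. Of 11 choroid plexus markers tested, 7 were higher and 1 was lower than in prefrontal cortex (33.7% and 30.2% of all genes). Against hippocampus 2 were higher, where 31.6% of all genes were, and 5 were lower, with a median of -0.39. All 11 were higher in hippocampus than in prefrontal cortex, where 54% of all genes differed. All 5 blood markers were higher in hypothalamus than in either other region and lower in hippocampus than in prefrontal cortex, the same order as Cd74, H2-Ab1 and H2-Aa. The median differences of the border macrophage markers had this order too. The sum of the 2 blood markers measured in all libraries was 996 to 1478 CPM in hypothalamus, 526 to 1038 CPM in prefrontal cortex and 270.0 to 392.5 CPM in hippocampus. The part of these cells and of blood in the regional difference was not tested.

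For diet, none of the 18 microglia markers and none of the 7 border macrophage markers passed. The 2 smallest p-values among the latter were those of Lyve1 (1.22 ± 0.30, edgeR adjusted p = 0.0638) and Cbr2 (0.99 ± 0.24, edgeR adjusted p = 0.069). The summed border macrophage level, over 5 of 8 markers, was 14.5 CPM (NP) and 31.7 CPM (LP) in hypothalamus, a log2 ratio of 1.13, and -0.53, 0.14, 0.34 and -0.17 in male and female prefrontal cortex and male and female hippocampus. The microglia sum had a ratio of 0.21 in hypothalamus and -0.08 to 0.01 elsewhere. All 5 blood markers, the haemoglobin genes and Alas2, passed as lower on LP, with a median of -0.61. Of all genes tested, 1.46% passed in either direction. In the hypothalamus pair, the border macrophage sum, H2-K1 and the class II genes H2-Ab1, H2-Aa and Cd74 were thus higher on LP, H2-Eb1 was at 0.09, and the blood sum was lower (1478 and 996 CPM); the part of cell composition in these results was not tested. In the other 4 pairs H2-D1 was higher on LP, and the border macrophage sum was higher in 2 and lower in 2. Markers within the sum differed: Cbr2 was higher on LP in every pair, and F13a1 was lower in male prefrontal cortex and female hippocampus. Lyve1, not in the sum, went from 6 to 17 counts in male and from 11 to 24 in female prefrontal cortex. In male hippocampus Lyve1 went from 3 to 2. The part of these cells in the H2-D1 result was not tested.

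The genes whose level followed H2-D1 most closely were found by the Pearson correlation of log2 CPM deviations from the region mean over the 10 libraries, among 8745 genes. They were Zcchc2 (r = 0.986), Wdfy1 (0.971), Soat1 (0.964), Hspa2 (0.959) and Glns-ps1 (0.959). H2-K1 had a value of 0.695 with H2-D1, B2m 0.583 and Tap1 -0.172. For Cd74 the closest were Hsd17b7 (0.959), Tle1 (0.957), Nfic (0.95), Aspg (0.941) and Ints9 (0.936), and H2-K1 had 0.877. These values describe the 10 libraries, which share regions, diets and sexes.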

How the data were processed

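RNA sequencing libraries (TruSeq, 1 µg of total RNA) from 10 brain samples were analysed. Per the submitters' processing notes, STAR 2.5.0a was the aligner and mm10 the genome, with CASAVA and FastQC 0.10.1 upstream of it. The table that the authors deposited holds whole-number counts for each Ensembl gene and was not normalized. How reads were counted (tool, strand, reads that match more than one place, annotation release) is not given in the sources used here.

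Of 47729 genes, 47310 were matched by ID to GENCODE M21. In the female NP hippocampus library 19598 genes were treated as not measured, being on or after the break or without a matched position. They held a mean of 33.7% of the counts of the other libraries. Tests of diet over all pairs, of regions and of sex fitted them without that library. Tests of diet within regions, and of diet differences between regions or sexes, left them out, as too few residual degrees of freedom remained. Library sizes were the counts of the 28131 genes measured in all libraries, scaled by TMM. Genes passed edgeR's filter at a minimum count of 10. Counts were tested with edgeR 4.0.16 (quasi-likelihood, R 4.3.3), with Benjamini-Hochberg adjustment over all genes tested and a threshold of 0.05. Diet was fitted with the stratum of region and sex, so that each NP and LP pair was compared within itself (4 residual degrees of freedom), diet within regions with 1 diet term per region (2), regions with sex and diet as terms (5), and sex within region and diet (3). Every test drew its spread from all genes as well. Ratios of single pairs have exact conditional binomial 95% intervals of the counts. Lengths for RPKM are GENCODE union exon lengths. Promoters are from RefSeq (GRCm38.p6). The fits were tested on simulated counts.

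The 10 genes and the lists were chosen with earlier results of these data known. Named genes follow a rule: all 10; for each pathway or marker list those that passed for diet, or otherwise the 2 with the smallest p; up to 3 per list between regions; every gene from H2-K1 to H2-D1 that passed for diet; and the 5 closest in pattern to H2-D1 and Cd74 among genes of at least 5 CPM on average. Alternatives were DESeq2 1.42.0, RLE scaling, no low-count filter, edgeR's earlier quasi-likelihood method, additive terms, and leaving out each pair or library. Lists for dendritic cells, T and NK cells, endothelium and choroid plexus were measured too. For diet, none of 4 dendritic cell, 3 B-cell, 1 T-cell and 3 monocyte or neutrophil genes tested passed. Higher on LP were 1 of 12 endothelial genes (Slc2a1, 0.30 ± 0.05) and 1 of 11 choroid plexus genes (Ttr, 1.36 ± 0.24), where 1.46% of all genes passed in either direction. Ttr went from 1244 to 2611 counts in male and from 461 to 2052 in female hippocampus. It had 15 and 9 counts (NP and LP) in male prefrontal cortex, 7 and 7 in female prefrontal cortex, and 59 and 39 in hypothalamus.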

Additional observations from a re-analysis of the deposited data

Results flagged for a closer look

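The response of H2-K1 to diet had opposite signs in the sexes: the log2 ratio of LP to NP was above 0 in both male pairs of prefrontal cortex and hippocampus (0.005 and 0.28) and below 0 in both female pairs (-0.16 and -0.004). The fitted difference, female minus male, was -0.205 (edgeR unadjusted p = 0.283, adjusted p = 0.855). Cd74 had the same signs, with 0.04 and 0.05 in males and -0.12 and -0.30 in females, and a difference of -0.207 (edgeR unadjusted p = 0.608, adjusted p = 0.938). Neither difference passed the test, and each of the 8 intervals of these ratios included 0.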

How the results depend on the processing

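Of the log2 differences of single genes under the alternatives, 521 kept their direction and side of the threshold, 17 lost a call, 5 gained one, 7 turned sign and 1 value with no test moved. The number of the 10 genes called for diet over all pairs, 2, fell to 1 with DESeq2 and with edgeR's earlier method, and ranged from 1 to 4 with a pair left out (4 without male prefrontal cortex). H2-Ab1 was the gene lost, at 0.73 with DESeq2 (adjusted p = 1.0) and 0.88 with the earlier method (adjusted p = 0.124). In prefrontal cortex the count of 1 fell to 0 with DESeq2 and without the low-count filter, and in hippocampus to 0 without the filter. For hippocampus minus prefrontal cortex the count was 2 to 5 with a library left out. The signs that turned did so with 1 pair or library left out and belong to differences that did not pass: over the pairs left out, the diet difference ranged from -0.017 to 0.13 for B2m, from -0.35 to 0.019 for Tap1, from -0.26 to 0.029 for Psmb8, from -0.06 to 0.96 for H2-Aa and from -0.04 to 0.71 for Cd74, and over the libraries left out the hippocampus minus prefrontal cortex difference of H2-D1 ranged from -0.27 to 0.011. Summing the class I heavy chain genes lowered the mean log2 ratio of the 5 pairs from 1.06 ± 0.53 for H2-D1 to 0.47 ± 0.36 (SD).

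Counts over all genes tested varied more. Within regions, and for diet differences between regions or sexes, only genes measured in all libraries were tested. For diet over all pairs, 259 genes passed, 109 with DESeq2, 171 without the filter, and 101 and 105 without the female prefrontal or the male hippocampus pair. In prefrontal cortex 201 passed, 13 with DESeq2, 24 without the filter, and 437 or 480 once a hippocampus pair (male, female) was left out; in hippocampus 38 passed, 11 with DESeq2, 5 without the filter, and 68 and 69 without the male or female prefrontal pair. Diet differences between regions gave 0 calls, and 1 with the earlier method; between sexes 21, with 12 in DESeq2 and 0 without the filter. For sex 108 passed, 35 with DESeq2, 27 without the filter and 14 to 26 without 1 of 3 pairs of sexes. The cause of these changes was not tested. Counts of at most 63 for the class II genes and the peptide supply genes outside the hypothalamus leave their changes there undetermined, and the hypothalamus has 1 library a diet.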
